A study of Mus musculus with 8 samples.

Results

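The repressor REST silences neuronal genes outside neurons, and 41 genes of that kind were followed here in mouse embryonic stem cells that were leaving the pluripotent state. The set holds 7 genes of secreted and dense-core vesicle proteins, 13 of synaptic vesicles and transmitter release, 9 of the neuronal cytoskeleton, 7 of the cell surface and its scaffolds, and 5 of nuclear and RNA-binding proteins. They are 41 of 21887 protein-coding genes placed on the main chromosomes. The genes were chosen by name with the HDAC1 and acetylation peaks of these same libraries already known, so their peak counts are a description and were given no test. REST itself was not mapped, and "under REST" rests on general knowledge of these genes.

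Chromatin immunoprecipitation with sequencing had been made from cells of the 129/Ola strain grown on gelatin in serum-free N2B27 medium. Histone H3 acetylation (H3ac), which marks promoters and enhancers in use, was mapped after 2, 4 and 6 days of differentiation. The histone deacetylase HDAC1 was mapped on day 2 as a FLAG-tagged protein with an antibody against the tag. Each of these 4 groups had 1 ChIP library and 1 input library, so no difference between days or targets has a replicate check. The deposited peak lists held 5286 HDAC1 peaks and 17368, 12945 and 5553 H3ac peaks on days 2, 4 and 6. They give no read depth, and a gene without a listed peak can still be bound or acetylated. Each peak carries the authors' own score, with 50 as the floor and an unstated scale, and ranks below count from 1 for the highest score of a list.

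REST binds a long DNA element called RE1, found in or near many genes used by neurons. It recruits corepressors, among them CoREST and Sin3 complexes, which carry the class I deacetylases HDAC1 and HDAC2 and remove acetyl groups from histone tails. In embryonic stem cells and neural progenitors this machinery keeps neuron-specific genes off, and REST declines as neurons mature.

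Promoter sequence was at hand for 29 of the 41 genes, as 45 windows of 300 bases that run from 250 before to 50 after each listed transcription start (RefSeq, GRCm38.p6). They were searched on both strands for the RE1 motif as a left arm TTCAGCACC and, after any 2 letters, a right arm GGACAGCGC, with at most 4 mismatches over the 18 fixed letters. Syn1 and Celsr3 had such a match, each with 2 mismatches, against 0.607% of all 21263 windows of protein-coding genes (129 windows). Unc13a came next with 5 mismatches. These windows are shown because they are the members whose promoters come closest to the element, and the capitals mark the match. Substitutions count from 1 at the first letter of the left arm, with the motif's letter first.

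Syn1: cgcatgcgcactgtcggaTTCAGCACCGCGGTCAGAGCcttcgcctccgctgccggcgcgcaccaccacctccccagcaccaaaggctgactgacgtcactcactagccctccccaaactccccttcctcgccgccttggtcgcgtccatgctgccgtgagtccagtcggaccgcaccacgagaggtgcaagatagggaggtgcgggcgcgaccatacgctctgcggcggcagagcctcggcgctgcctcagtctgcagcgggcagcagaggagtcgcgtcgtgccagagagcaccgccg
Celsr3: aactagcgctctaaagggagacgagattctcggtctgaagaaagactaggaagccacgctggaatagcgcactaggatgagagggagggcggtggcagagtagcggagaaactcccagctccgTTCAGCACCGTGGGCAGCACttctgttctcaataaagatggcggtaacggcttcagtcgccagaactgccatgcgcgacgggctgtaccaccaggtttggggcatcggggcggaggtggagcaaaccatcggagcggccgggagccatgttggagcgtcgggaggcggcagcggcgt
Unc13a: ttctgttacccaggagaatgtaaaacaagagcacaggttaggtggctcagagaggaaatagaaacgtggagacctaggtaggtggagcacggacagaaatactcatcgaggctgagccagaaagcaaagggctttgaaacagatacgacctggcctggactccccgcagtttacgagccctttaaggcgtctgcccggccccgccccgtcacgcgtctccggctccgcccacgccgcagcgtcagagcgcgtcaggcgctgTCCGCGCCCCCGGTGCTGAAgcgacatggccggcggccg

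The Syn1 window lies at chrX:20920869-20921168 on the minus strand, and its match, at bases -232 to -213 from the start, differs from the motif by A14T and C18A. The Celsr3 window lies at chr9:108825795-108826094 on the plus strand, with its match at -127 to -108 and the substitutions A14G and G19A. In Unc13a (chr8:71671708-71672007, minus strand) the match reads on the opposite strand from 11 to 30 bases after the start, with the substitutions A14G, A16G, G17C, C18G and C20A. The HDAC1 peaks of Syn1 and Unc13a cover these matches, and that of Celsr3 begins 726 bases after the start. A match to these letters is not a measured binding site.

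Scg2, which encodes secretogranin II of dense-core vesicles, holds the same arms with no letters between them. Read on the opposite strand, they differ from the motif by the single substitution G17T and lie at -16 to 1 from the start. This spacing was looked for after the windows had been seen, and 74 of all windows (0.348%) match it with at most 4 mismatches. Scg2 was the single member among them, and it had no HDAC1 or H3ac peak within 10 kb.

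Scg2: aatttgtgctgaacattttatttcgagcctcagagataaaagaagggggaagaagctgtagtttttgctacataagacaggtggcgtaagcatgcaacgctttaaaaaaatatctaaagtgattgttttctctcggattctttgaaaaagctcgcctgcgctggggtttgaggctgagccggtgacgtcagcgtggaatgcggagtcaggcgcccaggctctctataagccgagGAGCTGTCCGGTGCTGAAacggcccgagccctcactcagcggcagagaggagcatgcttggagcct

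The Scg2 window is chr1:79439977-79440276, on the minus strand.

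HDAC1 was listed for most of the set, and H3ac for fewer of its genes on later days. An HDAC1 peak lay in the gene or within 10 kb of it for 28 of the 41 genes, against 21.5% of all protein-coding genes. For H3ac the counts on days 2, 4 and 6 were 20, 14 and 4 genes, against 54.7%, 50.5% and 30.8% of all genes. The day 2 share lies near that of all genes. The H3ac lists differ in length, and with the 5285 top-scoring peaks of each list the members with H3ac numbered 5, 3 and 4 on days 2, 4 and 6, so the fall between days is not seen at equal length. Long genes collect more peaks by this rule. The members' median length was 30067 bp against 17169 bp for all genes, and among genes as long as the middle 50% of the members 23.2% had an HDAC1 peak. HDAC1 without H3ac was found at 11 of 41 genes, counted over all 3 days, and at 2.64% of all genes. The count was 3 with a window of 50 kb and 24 with lists of equal length. Equal length shortens the H3ac lists and leaves the HDAC1 list whole, which can only raise this count in any set of genes. The counts with 50 kb and with equal lists are given without the share of all genes under the same setting. By the 10 kb rule and the full lists, 17 members had both, 5 had H3ac without HDAC1, and 8 had neither. Of all 21887 genes these numbers were 4135, 9273 and 7902.

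**Figure D1:**
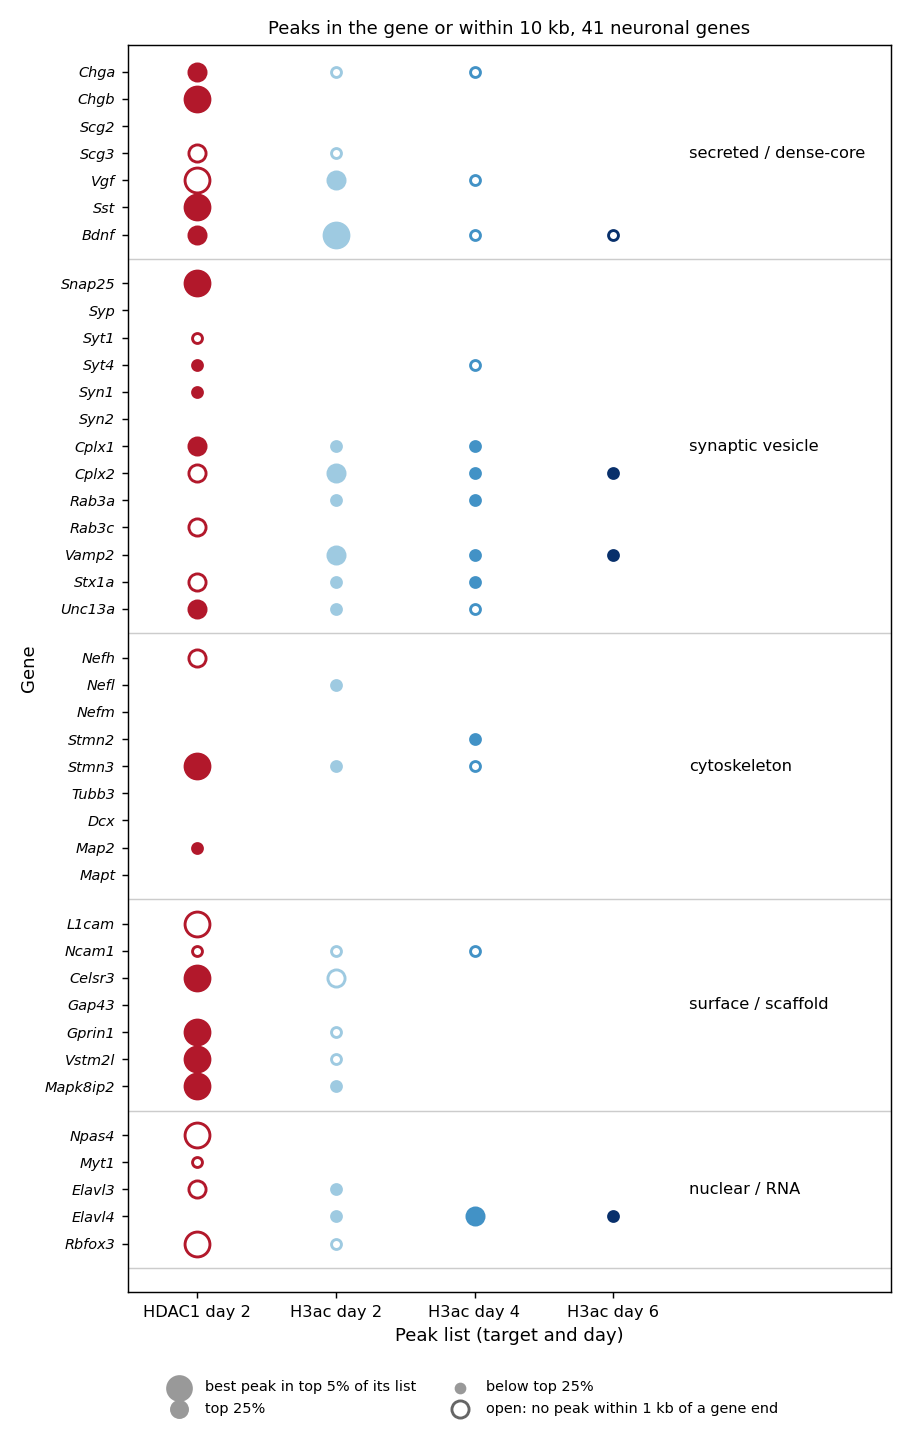
Peaks in or within 10 kb of each of the 41 genes (rows, by role) in the 4 peak lists (columns). A circle marks at least 1 peak, its size gives the rank of the best peak within its list (top 5%, top 25% or below), and a filled circle means that some peak of that list lies within 1 kb of an annotated gene end. The HDAC1 column holds 28 circles and the H3ac columns 20, 14 and 4, and in the H3ac columns only Bdnf on day 2 has the largest size.

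Counted at gene ends, within 1 kb of either annotated end, 15 genes had HDAC1 (9.40% of all genes). Gene-end H3ac was listed for 13, 7 and 3 genes on these days, against 40.6%, 38.0% and 23.3% of all genes. With the 5285 top-scoring peaks of each list the counts were 3, 3 and 3, given without the share of all genes at that length. Vamp2, Cplx2 and Elavl4 were the genes with a gene-end H3ac peak on every day. Of the 15 genes with HDAC1 at an end, 5 also had day 2 H3ac at an end, and of all 2057 genes with HDAC1 at an end 1661 did. Of scores, 15 of their 36 day 2 H3ac peaks, 6 of 19 on day 4 and 1 of 4 on day 6 scored above the median of their list, while 32 of their 43 HDAC1 peaks did.

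Overlap of HDAC1 with H3ac was counted peak by peak. Of the 43 HDAC1 peaks of the members, 5 overlapped a day 2 H3ac peak by at least 1 bp, against 27.7% of all 5285 placed HDAC1 peaks. On day 4 the number was 2 (25.7% of all) and on day 6 it was 0 (16.5% of all). When H3ac within 1 kb was counted, the day 2 number was 12 of 43, against 1843 of all 5285, so the difference from all peaks was smaller. The 5 peaks belonged to Vgf, Bdnf, Cplx1, Unc13a and Stmn3, and the Stmn3 one lay within the neighbouring gene Rtel1.

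The members also held some of the highest HDAC1 scores of the library, which entered into their choice. Of the 200 best-ranked HDAC1 peaks 12 were theirs, at Npas4, Gprin1, Rbfox3, Vstm2l, L1cam, Stmn3, Celsr3, Vgf, Mapk8ip2, Snap25, Chgb and Sst. One of these 12, at Vgf, overlapped day 2 H3ac. Overlap was also low among the other high-scoring HDAC1 peaks. In all, 14 of the 200 (7.0%) overlapped a day 2 H3ac peak, and 13 of those lay outside the set.

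**Figure D2:**
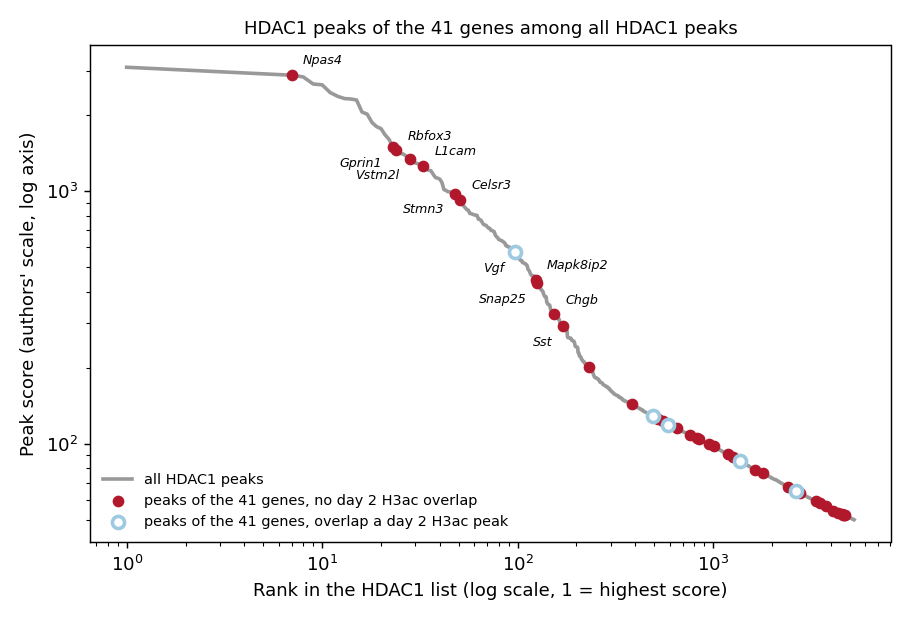
Score of every HDAC1 peak against its rank, both on log axes (grey line), with the 43 peaks of the 41 genes as points and the 12 of rank 200 or better named. Open circles are the 5 peaks that overlap a day 2 H3ac peak, and 1 of them, at Vgf, is among the 12.

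Among genes of secreted proteins and dense-core vesicles, 6 of 7 had HDAC1. For this group and those below, the shares of all genes were 21.5% for HDAC1 and 54.7%, 50.5% and 30.8% for H3ac by day. The groups are small, and differences between them were not tested. Chga and Chgb encode the granins that pack hormones into dense-core granules, and both carried HDAC1 across the transcription start. The Chgb peak (chr2:132781605-132782090, score 325.18, rank 154) ran from -37 to 448 bases, and no H3ac peak of any day lay within 10 kb of the gene. The nearest acetylation on days 2, 4 and 6 was 32787, 32930 and 32783 bp from it. The Chga peak (chr12:102554883-102555437, score 143.56, rank 386) ran from -58 to 496. Chga had a second HDAC1 peak of score 78.78 further upstream, a day 2 H3ac peak of score 53.27 and a day 4 one of 50.13, 5952 and 7041 bp from its ends, the later one within Itpk1. The Chga and Chgb windows are shown with the bases inside the HDAC1 peak in capitals. Their best RE1 match has 6 mismatches in each.

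Chga: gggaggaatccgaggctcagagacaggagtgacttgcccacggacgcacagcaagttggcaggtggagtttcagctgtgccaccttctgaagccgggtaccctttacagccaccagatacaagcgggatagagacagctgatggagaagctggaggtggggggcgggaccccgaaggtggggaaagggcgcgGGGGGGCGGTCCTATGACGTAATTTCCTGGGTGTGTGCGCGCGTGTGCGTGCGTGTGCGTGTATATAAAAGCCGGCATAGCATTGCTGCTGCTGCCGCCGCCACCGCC
Chgb: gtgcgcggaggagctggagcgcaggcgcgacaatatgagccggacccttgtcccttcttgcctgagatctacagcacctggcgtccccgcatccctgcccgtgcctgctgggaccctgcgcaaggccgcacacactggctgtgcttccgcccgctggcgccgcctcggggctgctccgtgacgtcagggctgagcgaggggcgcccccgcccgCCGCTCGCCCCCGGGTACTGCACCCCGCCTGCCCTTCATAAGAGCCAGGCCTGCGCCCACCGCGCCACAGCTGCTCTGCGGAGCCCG

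These windows are chr12:102554691-102554990 and chr2:132781392-132781691, both on the plus strand. Sst, the gene of the peptide hormone somatostatin, had HDAC1 at 237 to 604 bases after its start (score 291.40, rank 171) and no H3ac peak on any day. Scg3, another granin, had HDAC1 over its start (score 122.74, rank 553), and a day 2 H3ac peak of score 65.52 ended 58 bp from it on the upstream side. No later H3ac was listed for Scg3.

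Vgf and Bdnf departed from this pattern. Vgf encodes a neuropeptide precursor induced by growth factors, and it had 2 HDAC1 peaks. The weaker (score 88.62, rank 1269) lay 721 bp from the nearest day 2 H3ac peak. The stronger (chr5:137031054-137031356, score 575.27, rank 97) shared 149 bp with a day 2 H3ac peak of score 238.45. On day 4 a smaller H3ac peak of score 64.70 lay 12 bp away, and on day 6 none was listed. Bdnf, the gene of brain-derived neurotrophic factor, has 7 listed starts. Its second start, at base 109677032 of chromosome 2, was covered by H3ac on every day, with scores of 415.29 (rank 533), 117.43 (rank 5589) and 96.80 (rank 3468). The first start had H3ac on day 2 alone (score 260.95), where it overlapped an HDAC1 peak of score 65.22. The second HDAC1 peak of the gene (score 99.35) lay between these starts, 759 bp from the nearest day 2 H3ac peak. Ranks from lists of different lengths show no change between days.

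**Figure D3:**
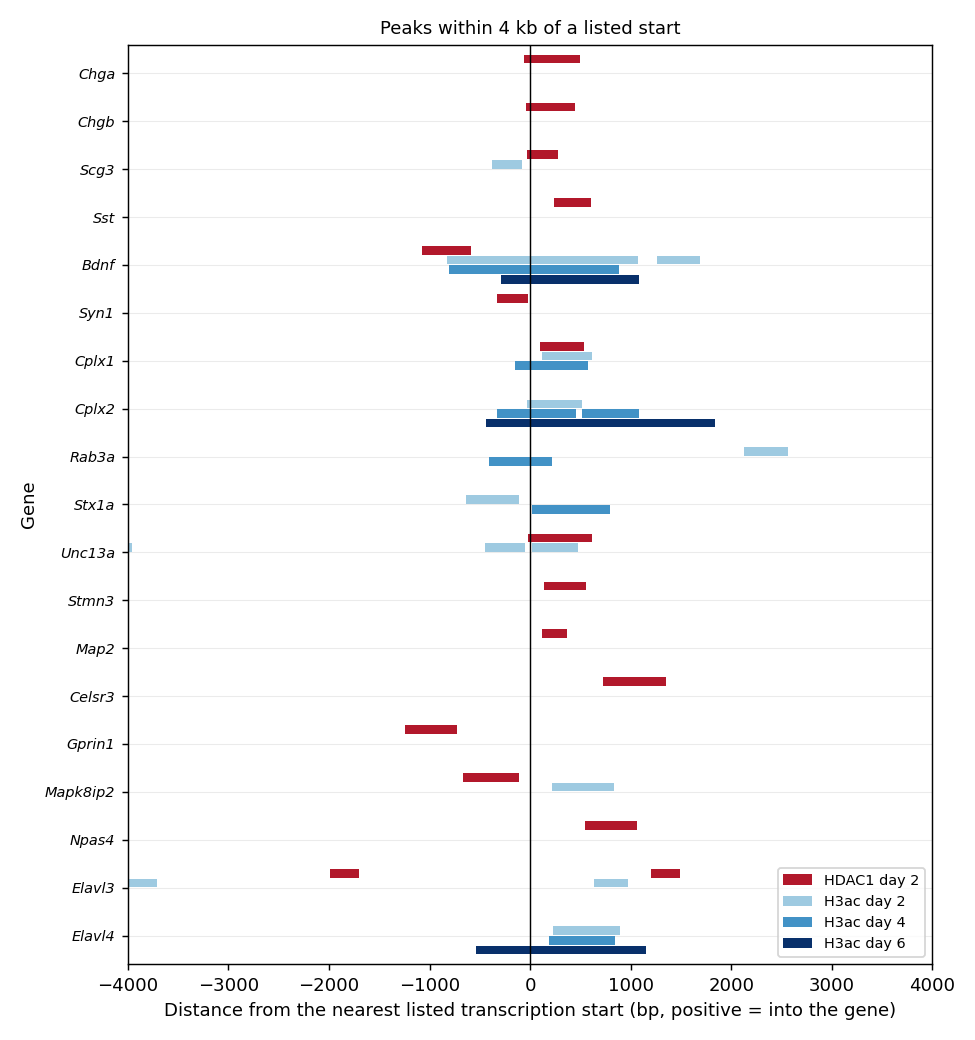
Position of HDAC1 and H3ac peaks within 4 kb of the nearest listed transcription start, in base pairs, for the members with a listed start and such a peak (rows). Bars are peaks, coloured by target and day, and for Bdnf and other genes with several starts each peak is drawn from the start nearest to it. HDAC1 covers the start of Chga, Chgb, Scg3 and Unc13a, and H3ac on 3 days is seen at Bdnf, Cplx2 and Elavl4.

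Genes of synaptic vesicles and transmitter release gave 9 of 13 with HDAC1 and 6, 7 and 2 with H3ac on days 2, 4 and 6. The H3ac shares were 46.2%, 53.8% and 15.4%, and those of days 2 and 4 lie near the shares of all genes. Snap25, a SNARE protein of vesicle fusion, had the strongest HDAC1 peak of this group (chr2:136714090-136714507, score 434.46, rank 126), 651 bp inside its lower-coordinate end. No H3ac was listed for it on any day. Syn1, which encodes the vesicle-coating synapsin I, had HDAC1 at -332 to -26 bases from its start (score 76.28, rank 1801), over the RE1 match shown above, and likewise no H3ac. HDAC1 without H3ac was also seen at Rab3c, a vesicle GTPase, with a peak of score 114.84 at 16232 bases after its start, and at Syt1, a calcium sensor of release. The Syt1 peak (score 67.51) lay 440573 bases after the nearest start of a gene 513331 bp long.

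Cplx1 and Unc13a carried HDAC1 and H3ac together. Cplx1 encodes complexin, which clamps and promotes vesicle fusion. Its HDAC1 peak (score 118.53, rank 591) shared 419 bp with a day 2 H3ac peak of score 75.25 and lay wholly within a day 4 peak of score 63.13. On day 6 the nearest H3ac was 235550 bp away. Unc13a, a priming factor for vesicles, had HDAC1 from -19 to 615 bases (score 128.87, rank 493), with a day 2 H3ac peak of score 53.63 inside it. No gene-end H3ac peak was listed for Unc13a on days 4 and 6.

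Cplx2 and Stx1a carried HDAC1 far from their acetylated starts. At Cplx2, a second complexin, H3ac covered the start on every day with scores of 59.11, 127.65 and 143.05, and the HDAC1 peaks (scores 105.01 and 56.37) lay 69062 and 70827 bases downstream, where a day 2 H3ac peak of score 50.91 was 499 bp from the first. Stx1a, a SNARE protein of the plasma membrane, had HDAC1 13784 bases after its start (score 108.19). Its H3ac lay just before the start on day 2 (score 59.40) and just after it on day 4 (score 101.31). Syt4, a synaptotagmin, had low peaks of HDAC1 (score 53.05) and of day 4 H3ac (score 52.17) at different sites.

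Acetylation without HDAC1 was seen at Vamp2 and Rab3a. Vamp2, the vesicle SNARE, had H3ac at its lower-coordinate end on all days, with scores of 123.17, 140.07 and 66.21, and its nearest HDAC1 peak (score 137.65) lay 14690 bp outside the gene. Rab3a, a vesicle GTPase, had H3ac over a start on day 4 (score 54.00). A day 2 H3ac peak of score 50.94 lay inside Rab3a, 945 bp from its higher-coordinate end and within 1 kb of an end of Mpv17l2. Its other day 2 peaks lay at the neighbouring genes Mpv17l2 and Ifi30. Syp and Syn2, which encode synaptophysin and synapsin II, had no peak in any list.

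Cytoskeletal genes had the fewest peaks. HDAC1 was listed for 3 of 9 (33.3%, against 21.5% of all genes), and H3ac for 2, 2 and 0 on days 2, 4 and 6. Stmn3, a stathmin that binds tubulin, had 3 HDAC1 peaks. One stood 137 to 553 bases after its start (score 201.12, rank 232) with no H3ac overlap. The strongest (chr2:181302034-181302502, score 979.51, rank 48) lay outside the gene, 3957 bp beyond its lower-coordinate end, and the third was the peak in Rtel1. Stmn3 also had a day 2 H3ac peak of score 71.47 near its lower-coordinate end. Map2, which stabilises dendritic microtubules, had a low HDAC1 peak (score 52.02, rank 4736) at 116 to 371 bases after its start and no H3ac. The peak counted for Nefh, the heavy neurofilament (score 125.34), lay 1165 bp outside the gene and within Ap1b1.

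Nefl and Stmn2 had 1 H3ac peak each. Nefl, the light neurofilament, had one across its lower-coordinate end on day 2 (score 109.52) and none later. Stmn2, a stathmin of growing axons, had one across its lower-coordinate end on day 4 (score 86.75) and none on days 2 and 6. Neither gene had HDAC1 within 10 kb. Nefm, Tubb3, Dcx and Mapt, which are widely used as neuronal markers, had no peak in any list.

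Genes of the cell surface and its scaffolds held 4 of the 7 strongest HDAC1 sites of the set. HDAC1 was listed for 6 of the 7 genes, and H3ac for 5, 1 and 0 on days 2, 4 and 6. L1cam, an adhesion molecule of growing axons, had a single HDAC1 peak (chrX:73869350-73869670, score 1256.71, rank 33), inside the gene and 11120 bases after its nearest listed start. The nearest H3ac peaks on days 2, 4 and 6 were 44798, 51494 and 43833 bp away. Gprin1, linked to neurite outgrowth, had its main HDAC1 peak upstream, from -1242 to -731 (chr13:54750605-54751116, score 1500.03, rank 23), and a second one of score 97.60 by the neighbouring gene Sncb. Vstm2l had HDAC1 850 bp outside its lower-coordinate end (chr2:157913071-157913803, score 1345.97, rank 28). A weaker HDAC1 peak of Vstm2l (score 59.05) lay inside the gene, 694 bp from its higher-coordinate end. Celsr3, a cadherin that guides axons, had HDAC1 at 726 to 1347 bases after its start (chr9:108826771-108827392, score 924.13, rank 51).

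The day 2 H3ac peaks counted for Celsr3, Gprin1, Vstm2l and Mapk8ip2 did not overlap their HDAC1 peaks. That of Celsr3 (score 157.82) lay at Slc26a6, 1124 bp outside the gene, and the day 2 H3ac peak nearest to the HDAC1 site was 17808 bp from it. The stronger one at Gprin1 (score 87.60) lay within the gene, and that of Vstm2l (score 52.58) was 6543 bp outside it. Mapk8ip2, a scaffold of the JNK pathway, had HDAC1 from -670 to -113 bases (score 446.07, rank 124) and H3ac from 222 to 829 (score 89.39), 335 bp apart. None of these 4 genes had H3ac on days 4 or 6. Ncam1, an adhesion molecule, had low HDAC1 peaks (scores 52.40 and 52.48) and a day 2 H3ac peak of score 55.80 that ended 68 bp from the first. Gap43, a growth-cone protein, had no peak in any list.

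Of the genes for nuclear and RNA-binding proteins, 4 of 5 had HDAC1. Npas4, an activity-induced transcription factor, held the strongest HDAC1 peak of the set (chr19:4988911-4989423, score 2882.57), rank 7 of the library. It stood 548 to 1060 bases after the listed start, and the nearest day 2 H3ac was 25492 bp away. Rbfox3, whose product is the neuronal marker NeuN, had 6 HDAC1 peaks along a gene of 421838 bp. The strongest (chr11:118584749-118585272, score 1450.75, rank 24) lay 175769 bases after the listed start, and the other scores ran from 52.25 to 127.54. The single H3ac peak of Rbfox3, on day 2, scored 51.45. Myt1, a zinc-finger factor of neurogenesis, had HDAC1 5698 bases after a start (score 85.22) and no H3ac within 10 kb.

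The related RNA-binding proteins of Elavl3 and Elavl4 differed in these lists. Elavl3 had HDAC1 on either side of its start (scores 90.74 and 54.33) and H3ac on day 2 alone, with a peak of score 61.61 that lay 631 to 973 bases after the start and one of score 73.70 by Zfp653. Elavl4 had no HDAC1 within 45812 bp of the gene. It had H3ac at a listed start on every day, with scores of 63.42 (rank 11925), 203.91 (rank 2641) and 112.21 (rank 3040), and the day 6 peak covered the start.

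Distances of HDAC1 peaks from listed starts ranged widely. Of 34 peaks at 22 genes with a listed start, 4 covered a start, 5 lay within 1 kb before one and 6 within 1 kb after, and 19 lay further away. In all, 28 of the 43 peaks were wholly inside the gene, 3 ran across a gene end and 12 lay outside. The annotation used gives no exons, so introns and exons were not told apart. The members' HDAC1 peaks had a median width of 368 bp against 311 bp for all HDAC1 peaks. High-scoring peaks were wider in general, with a median of 460 bp for the 200 best-ranked, and high scores entered into the choice of members. The members' peaks below rank 200 had a median of 350 bp. HDAC1 was listed with 1 peak at 18 genes and 2 peaks at 8, and Stmn3 and Rbfox3 had more.

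CpG content at the starts is a feature that the choice of genes did not use. The peaks set beside it below were known when the genes were chosen, so those overlaps are a description. With the window of most CpG taken for each gene, the 29 members had a median of 21.0 CpG in 300 bases and 17492 genes had 15.0. Over all windows, 45 at the 29 members and 21263 at the 17492 genes, the median was 13.0 in both. The higher median of the members is seen with this choice of window and not over all windows. A window with 20 or more CpG was found at 16 of the 29 (55.2%) and at 6803 of all genes (38.9%). Among all such CpG-rich windows 50.3% overlapped a day 2 H3ac peak, and 1 of the members' 16 did, at Unc13a. Of the members' 13 other windows 3 did (23.1%), against 16.5% of all windows with fewer CpG. HDAC1 overlapped 5 of the members' 16 CpG-rich windows and 8.0% of all 6803. When peaks within 1 kb of the window were counted, day 2 H3ac was listed for 5 of the 16 and 4859 of the 6803. HDAC1 was then listed for 10 of the 16 and 1072 of the 6803.

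**Figure D4:**
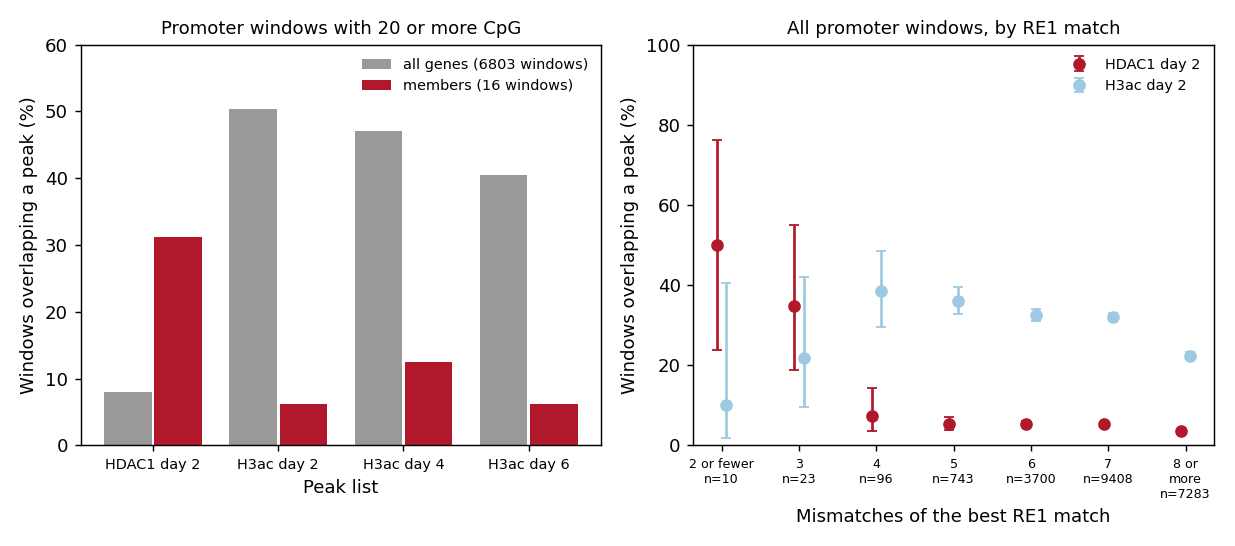
Left, share of CpG-rich promoter windows (20 or more CpG in 300 bases, 1 window a gene) that overlap a peak of each list, for all 6803 genes and for the 16 members, where the bars stand for 5, 1, 2 and 1 windows. Right, share of all windows that overlap an HDAC1 or day 2 H3ac peak by mismatches of the best RE1 match, with Wilson 95% intervals. HDAC1 overlaps 5 of the 10 windows with 2 or fewer mismatches and 5.25% of those with 5.

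HDAC1 overlapped a larger share of the windows with close RE1 matches than of all windows. HDAC1 overlapped 13 of 33 windows with 3 or fewer mismatches (39.4%, Wilson 95% interval 24.7 to 56.3%) and 4.75% of all windows. At 4 mismatches the share was 7.29% (3.58 to 14.3%) of 96 windows. Day 2 H3ac overlapped 6 of the 33 (18.2%, 8.61 to 34.4%) and 29.0% of all. The interval holds the 29.0%, so a lower share is not shown for these closer matches. At 4 mismatches H3ac overlapped 37 of the 96 windows (38.5%, 29.4 to 48.5%). All windows are an unlike background in CpG. The median was 23.0 CpG at 3 or fewer mismatches and 20.5 at 4, against 13.0 in all windows. Of the CpG-rich windows, 1 a gene, 50.3% overlapped day 2 H3ac and 8.0% HDAC1. Whether CpG content accounts for these shares was not tested. The intervals cover counting error alone. Syn1 is a member among the 13.

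Other genes known as REST targets and the genes of the REST machinery were read by the same rule. Of 21 other targets, mostly ion channels, receptors and transmitter enzymes, 10 had HDAC1 (47.6%), against 21.5% of all genes. Their H3ac counts on days 2, 4 and 6 were 9, 8 and 3 (42.9%, 38.1% and 14.3%), against 54.7%, 50.5% and 30.8% of all genes. The strongest HDAC1 peak among them was at Glra1, a glycine receptor subunit (score 1211.63, rank 35), 76 bp from a gene end, and Glra1 had H3ac on days 4 and 6 (best scores 104.90 and 177.26). Gria2, a glutamate receptor subunit, has an RE1 match with 1 mismatch in its promoter window and had no peak in any list. Chat and Slc18a3, nested genes of acetylcholine synthesis and packing, share their HDAC1 peaks (best score 61.84). The 19 genes of REST and its corepressors were mostly acetylated. H3ac was listed for 17, 18 and 14 of them on days 2, 4 and 6, against 54.7%, 50.5% and 30.8% of all genes. HDAC1 was listed for 6 of the 19 (31.6%), against 21.5% of all genes. Rest itself had H3ac on every day, with best scores of 458.04, 304.75 and 141.96, and an HDAC1 peak of score 51.62.

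The state of the cells was read from H3ac at marker genes, which do not give RNA levels. Of 10 pluripotency genes 8, 1 and 2 had gene-end H3ac on days 2, 4 and 6, and of 10 neural progenitor genes 1, 7 and 4 had it. Sox2 was the pluripotency gene with it on day 4, and its best scores by day were 302.68, 1122.54 and 1070.72. Of all genes 40.6%, 38.0% and 23.3% had gene-end H3ac on these days. The lists differ in length, so these counts show no change between days. Glial and mesendoderm markers, 6 each, had none on days 2 and 6, and 1 glial marker had it on day 4. Of the members often used as neuron markers, Tubb3, Dcx, Map2, Mapt and Rbfox3 had no gene-end H3ac on any day. Elavl4 had it on every day, Stmn2 on day 4, and Nefl and Elavl3 on day 2. Whether cells with active neuronal genes were present in small numbers was not tested.

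The limit of 10 kb bears on the H3ac counts more than on those of HDAC1. A window of 50 kb gave 32 members with HDAC1, and 33, 30 and 18 with H3ac on days 2, 4 and 6. These counts are given without the share of all genes in that window. The HDAC1 peak farthest from its gene among those counted was the second one of Gprin1 at 8488 bp, and the nearest not counted was that of Vamp2. For day 2 H3ac the farthest counted lay 7381 bp from Mapk8ip2, and the nearest not counted were 10473 bp from Myt1 and 11476 bp from Npas4. On day 4 peaks not counted lay 10315 bp from Myt1, 11030 bp from Elavl3 and 11475 bp from Syn1. Of all genes 38.7% had no H3ac peak on any day by this rule, and 19 of the 41 members had none.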

How the data were processed

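Reads were aligned with Bowtie 0.12.8 to mm10, per the submitters' processing notes. Each deposited list gives chromosome, start, end, name and a score per peak, with no header. The names begin with MACS, and the caller's version, cut-off, score scale and use of inputs were not given in the sources used here. The peak score is the authors' and served to rank peaks within a list. Genes and promoter windows came from RefSeq (GRCm38.p6, the coordinates of mm10). Coordinates are 1-based. Peaks off chromosomes 1 to 19, X and Y, at most 10 a list, were left out. For 12 members no promoter window was used, and positions refer to gene ends. Overlaps, motif search and Wilson intervals used Python 3.11.15, pandas 2.3.3, numpy 2.4.6 and scipy 1.17.1. The overlaps and the motif search were tested on simulated data. With 1 library a group, no p-value was computed. With no genome, the motif was searched in promoter windows, not in peaks. The members and lists were chosen with earlier results of these data known. All 41 members are named, by a rule that took every member. The alternatives changed the window, the peaks used and the overlap.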

Additional observations from a re-analysis of the deposited data

How the results depend on the processing

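Of 57 recomputed counts over 13 results, 33 stayed within 1.5 times the count given. They are counts of members or of their peaks, given here without the share of all genes or peaks. No paired analysis was possible because each target and day had 1 ChIP library. The number of members with HDAC1 stayed within 1.5 times under every window and peak filter tried, and the numbers with H3ac did not under all of them. Taking the 5285 top-scoring peaks keeps every placed HDAC1 peak, so the HDAC1 number could not move under that filter. With the higher-scoring 50% of each list, members with H3ac on days 2, 4 and 6 numbered 11, 4 and 1, gene-end H3ac 5, 3 and 1, and HDAC1 without H3ac 17. With the 5285 top-scoring peaks of each list, members with H3ac numbered 5 on day 2 and 3 on day 4, gene-end H3ac 3 and 3, HDAC1 without H3ac 24, and HDAC1 peaks at H3ac sites 2 on day 2 and 0 on day 4; the day 6 count was 4. A window of 50 kb gave 33, 30 and 18 members with H3ac and 3 with HDAC1 alone. Gene ends within 0.5 kb gave 8 members with day 2 H3ac and 9 with HDAC1. Counting H3ac within 1 kb of an HDAC1 peak gave 12, 5 and 1 peaks on days 2, 4 and 6. With the motif's arms abutting, 1 member matched. Leaving out peaks that touch another gene, chosen after the peaks were seen, left 27 members with HDAC1 and 18, 12 and 4 with H3ac. The causes were not tested. Peak lists hide signal under the caller's threshold, and single libraries cannot separate biology from depth.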

Other observations

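The promoter windows closest to RE1 in the whole annotation belong mostly to genes outside the set, named here after their values were seen. There were 10 windows with 2 or fewer mismatches. Lhx3, which encodes a LIM homeodomain factor of motor neurons and pituitary, holds the motif with 0 mismatches, and an HDAC1 peak of rank 996 overlaps its window. Osbp2, Lhfpl5, Ttc9b and Gria2 have 1 mismatch, and of these Ttc9b was overlapped by HDAC1 (rank 2853). Among the windows with 2 mismatches, HDAC1 overlapped those of Syn1, Ogdhl (rank 2339) and Scamp5 (rank 2753), and not those of Hrh3 and Celsr3. Scamp5, a gene of secretory carrier membranes, was the single one of the 10 with day 2 H3ac over its window (rank 5106), and none had H3ac there on days 4 or 6. The HDAC1 peaks over these windows rank from 996 to 2853.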
